A study of Mus musculus with 19 samples.

Results

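The genes described here are 47 genes of the interferon response and of antigen presentation on major histocompatibility complex (MHC) class I, taken by gene symbol from a table of Affymetrix mouse array values. The table held 45101 probe sets and 18193 genes with at least 1 probe set of their own. Of the 47 genes, 45 had a probe set of their own, on 90 probe sets in all. Ifi44 was not listed, and Isg15 was listed only on a probe set that names a further gene, so no value is given for either. A filter on dim probe sets left 41 of the 47 for testing, among 14996 genes. Usp18, Oasl2, Mx2 and Psmb8 did not pass it.

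Interferons are secreted proteins that bind receptors linked to JAK kinases, which activate STAT transcription factors. The complex ISGF3, which includes STAT2 and IRF9, binds a DNA element called ISRE, while pairs of STAT proteins bind an element called GAS. Fibroblasts keep low levels of many of these genes without added interferon, and raise them strongly when they sense viral nucleic acid. The products detect foreign RNA or DNA, block viral growth, mark intracellular vacuoles, and cut and load peptides onto MHC class I molecules for display to T cells.

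The cells were NIH3T3, an established line of mouse embryonic fibroblasts. In every group they had first been made quiescent by 48 h in medium with 0.1% serum. Quiescent cells formed the reference, with 3 samples (replicates 1a and 1b of experiment 1, and replicate 2). FGF groups received basic fibroblast growth factor at 50 ng/ml for 1, 4, 7 or 12 h. FGF+U0126 groups also received U0126, a small-molecule inhibitor of the kinases MEK1 and MEK2, at 20 µM from 0.5 h before FGF. In the late additions U0126 came 1 h after FGF with collection at 7 h, or 7 h after FGF with collection at 12 h. The 4, 7 and 12 h groups held 2 samples each, numbered by experiment, and the 1 h and late-addition groups held 1 each, for 19 arrays in 11 groups. No untreated time control stands beside the 4, 7 and 12 h samples, so time after the change of medium and FGF cannot be told apart against quiescent cells. The labels do not say whether experiments were separate cultures, so p-values measure the spread between these samples.

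Values are MAS5 signal, a linear intensity scaled so that the mean without the top and bottom 2% of values was 500 on each array. Array medians were 60.2 to 88.3, and a signal of 45.2, the 40th percentile of all values, is used here as the level below which a gene is not shown above background. Signals of different probe sets cannot be compared. Differences are on the scale log2(signal + 13.6), which understates changes of dim genes, with standard errors (SE) and limma's adjusted p from 1 fit of all 11 groups. A call is an adjusted p under 0.05. Quiescent replicates 1a and 1b entered as their mean, and lone arrays were assumed to vary like the other groups. Calls were recomputed in up to 12 other settings, including a block for the experiment number (replicate block), and without each array of a group of 2 or 3 in turn. For the 21 members with 1 probe set, among them Ifit3 and Parp9, settings on the choice of probe set could not change the signals.

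The cells carried fibroblast markers, with 8 of 8 above 45.2 on all arrays (summed signal 104300 to 178800). Of 7 macrophage markers, 2 were above it on all arrays, and Ptprc and Itgam on none (summed signal 478.4 to 798.3). Endothelial markers were above it on all arrays for 0 of 4 (45 to 192.5), dendritic cell markers for 0 of 4 (117.1 to 296) and epithelial markers for 1 of 4 (284 to 769.2). In whole-culture RNA, fewer cells of a type and less RNA per cell cannot be told apart. Dusp6, a phosphatase gene that reports ERK activity, rose by 2.37 (SE 0.16, adjusted p = 5.13e-07) at 12 h of FGF and was -2.42 (SE 0.09, adjusted p = 3.97e-10) with U0126, averaged over 4, 7 and 12 h.

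Promoter windows of members with an ISRE-like motif are shown because ISGF3 acts through this element and because members with and without calls carry it. The motif searched was GAAANNGAAA, on both strands (TTTCNNTTTC on the other), in the 250 bases before each RefSeq gene start (GRCm38.p6). Of the 47 members 37 were in the table, and 11 of them (29.7%) held the motif, against 3.46% of 27025 genes and 2.98% of 32851 promoters. The GAS-like motif TTCNNNGAA was in 7 of the 37 (18.9%), against 8.13% of genes and 7.02% of promoters. Matches overlap in Gbp3, Irgm1 and Bst2, and the Bst2 run also holds the GAS-like letters. Igtp has a GAS-like match as well, from 45 bases before its start. The Igtp window begins at 44, so that match is cut and not in capitals. Each line is 30 bases, 5′ to 3′ on the gene's strand, with the motif in capitals. The first 8 lines belong to genes called in at least 1 comparison below, and the last 2 to genes that no comparison called in the fit without a replicate block. A match describes these letters and is not a binding site.
Ifit1, chr19:34640785-34640814, plus strand: TTTCACTTTCcagtctcagTTTCAGTTTCt
Ifit3, chr19:34583363-34583392, plus strand: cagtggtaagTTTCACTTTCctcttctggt
Ifit3, chr19:34583397-34583426, plus strand: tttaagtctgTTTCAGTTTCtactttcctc
Gbp2, chr3:142620594-142620623, plus strand: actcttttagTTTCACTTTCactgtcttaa
Gbp3, chr3:142559992-142560021, plus strand: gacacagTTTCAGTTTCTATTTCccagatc
Igtp, chr11:58199512-58199541, plus strand: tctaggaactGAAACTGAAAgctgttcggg
Irgm1, chr11:48871428-48871457, minus strand: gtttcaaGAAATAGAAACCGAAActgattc
Stat2, chr10:128270266-128270295, plus strand: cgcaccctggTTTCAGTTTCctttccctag
B2m, chr2:122147538-122147567, plus strand: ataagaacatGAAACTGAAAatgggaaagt
Bst2, chr8:71537580-71537609, minus strand: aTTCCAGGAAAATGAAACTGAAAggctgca

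The Ifit3 windows lie within the gene's annotated span, before one of its starts, and the Gbp3 window overlaps its span. Stat2 sits at chr10:128270498-128292853, and Gbp2 and Gbp3 are near neighbours on chromosome 3 (chr3:142620663-142638008 and chr3:142560016-142573213). Ifit2, Ifit3 and Ifit1 lie in a row on chromosome 19, from chr19:34550550-34576534 to chr19:34640889-34650009. The other members with the motif were Isg15 and Rsad2. Many called members lacked it. Among those called lower at 12 h of FGF, no ISRE-like match was found for Ddx58, Irf1, Ifit2, Ifi35, Xaf1, Trim25, Dtx3l, Psmb10 and Tapbp. A link between motif and calls was not tested.

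Of the 41 tested members, 10 to 17 were called lower at 4, 7 and 12 h of FGF, and limma called none higher at 1, 4, 7 or 12 h. At 12 h the guanylate-binding protein gene Gbp2 fell by 3.30 on the log2 scale, and on the same scale the apoptosis factor gene Xaf1 fell by 2.36 and the antiviral gene Ifit3 fell by 2.23. At 4 h 10 of 41 members were lower and 0 higher (4.98% and 3.92% of all genes), with a median member difference of -0.42 against -0.09 for all genes. At 7 h 11 were lower and 0 higher (7.2% and 5.45% of all genes, median -0.37). At 12 h 17 were lower and 0 higher (11.8% and 8.55%, median -0.48). Members were chosen with earlier results of these data known, so the counts beside these shares are a description and not a test. At 1 h, with 1 FGF array, limma called 0 lower and 0 higher (0.107% and 0.373% of all genes), 1 member had an unadjusted p under 0.05, and the median was -0.03. At an unadjusted p under 0.05, 1 member was higher at 12 h and 0 at 4 and 7 h. In either direction 16, 14 and 19 members were under it at 4, 7 and 12 h, against 3219, 3641 and 4662 of 14996 genes. The share of members under it at 1 h was below that of all genes. Adar, Mx1, Lgals3bp and Iigp1 lay above quiescent in each of the 6 differences by experiment and time, with no call there. Without quiescent replicate 2 the counts were 6, 7 and 10 at 4, 7 and 12 h. The 7 h count was also 7 without FGF 7 h replicate 2, and at 12 h 10 were called when FGF 12 h replicate 1 was left out, and 8 were called when replicate 2 was. Calls over all genes also fell in each of these fits with an array left out. With no variance trend in limma the 12 h count was 10, and calls over all genes fell from 3049 to 2377. The 7 calls that ended there were Ifit2, Ifi35, Igtp, Trim25, Psmb10, Tap2 and Tapbp. Fibroblast markers fell beside these genes, with 4 of 8 lower at 12 h (median -0.60) and Pdgfrb at -1.37. Their part in the result was not tested.

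**Figure D1:**
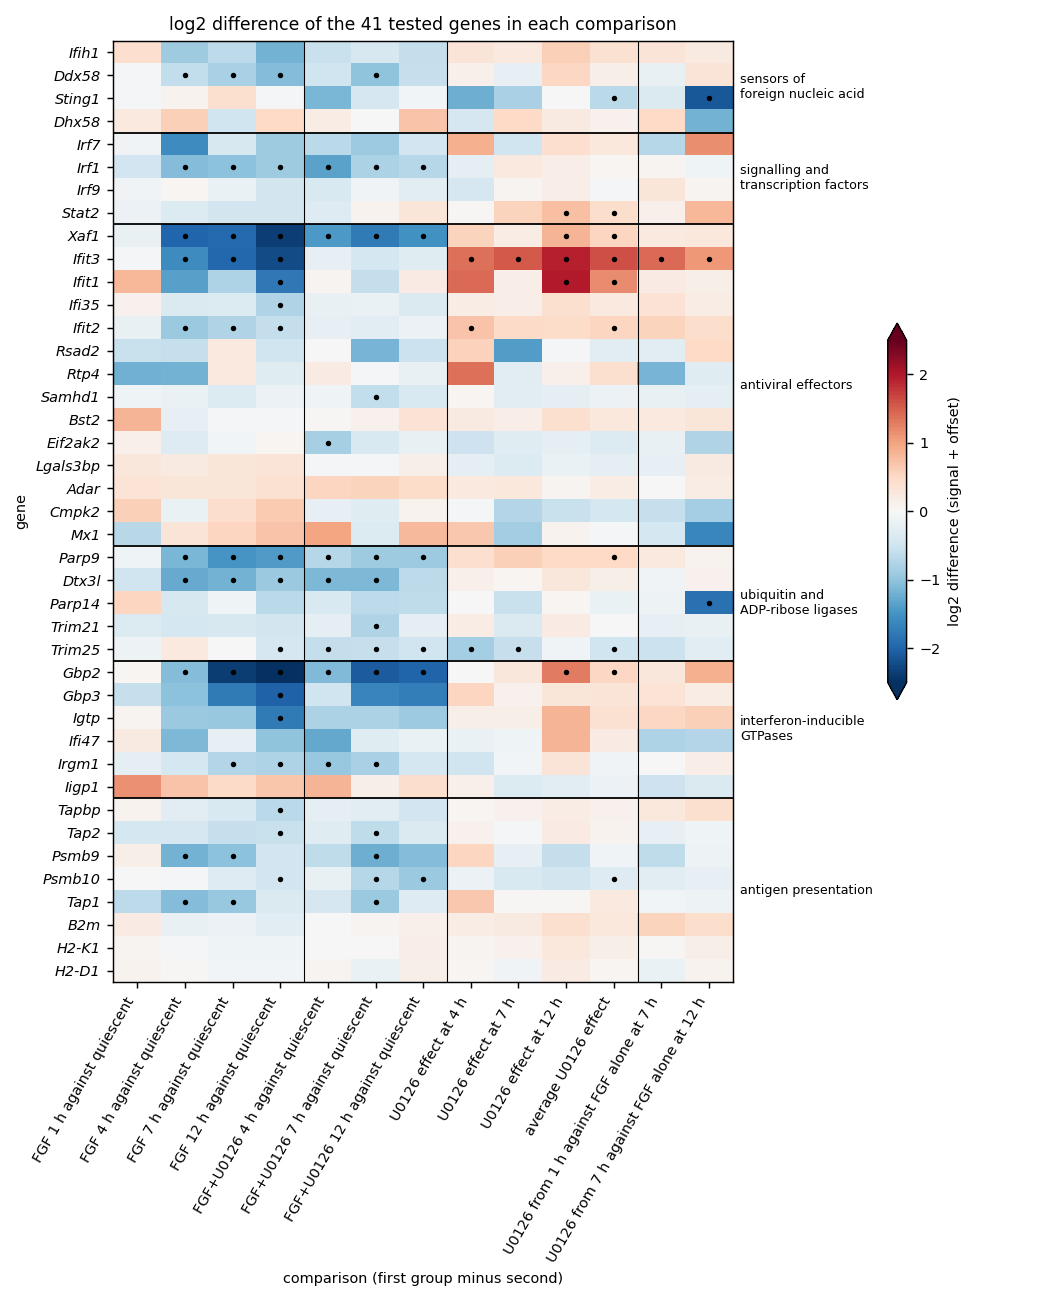
Log2 difference of the 41 tested members (rows, grouped by role) in 13 comparisons (columns), blue for lower and red for higher on a scale that ends at 2.5 in each direction, with a dot where limma's adjusted p was under 0.05. The 3 columns of FGF at 4, 7 and 12 h against quiescent hold dots on blue cells only, and Ifit3 carries dots on red cells in each of the 6 comparisons of U0126 with FGF alone.

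Among the 4 sensors of foreign nucleic acid, 1 was lower at each of 4, 7 and 12 h (4.98%, 7.2% and 11.8% of all genes). Ddx58 encodes RIG-I, which detects uncapped viral RNA in the cytoplasm. Ddx58 read 560.1, 633 and 643 in the quiescent samples. Under FGF alone Ddx58 read 608 at 1 h, 424 and 371 at 4 h, 318 and 375 at 7 h, and 298 and 269 at 12 h. With U0126 first, Ddx58 read 599.6 at 1 h, 441 and 424 at 4 h, 287 and 313 at 7 h and 431 and 390.4 at 12 h, and the late additions gave 302 at 7 h and 355 at 12 h. All FGF arrays from 4 h on lay below all quiescent arrays, and at 12 h the U0126 arrays lay above those with FGF alone. The difference from quiescent was -0.62 (SE 0.18, adjusted p = 0.04) at 4 h, -0.82 (SE 0.18, adjusted p = 0.00694) at 7 h and -1.09 (SE 0.18, adjusted p = 0.000478) at 12 h. Ddx58 lost its 4 h call in 6 of 12 other settings and without quiescent replicates 1b or 2 or FGF 4 h replicates 1 or 2 (log2 difference -0.72 to -0.47, adjusted p 0.0519 to 0.788). Ddx58 lost its 7 h call with the probe set of highest variance and without quiescent replicate 2 or FGF 7 h replicate 1 (log2 difference -0.76 to -0.45, adjusted p 0.0666 to 0.787). Ddx58 lost its 12 h call with the probe set of highest variance (log2 difference -1.11, adjusted p 0.242). Ddx58 was also called higher with U0126 at 12 h under the replicate block (0.52, adjusted p = 0.0323).

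Ifih1, which encodes MDA5, a sensor of long double-stranded RNA, read 30.7 and 114 at 12 h of FGF and 119.8 to 199.8 in quiescent cells. Its 12 h difference was -1.19 (SE 0.41, adjusted p = 0.0567), and it was called with the replicate block (-1.19, adjusted p = 0.0169). Dhx58, for the regulator LGP2, was above 45.2 on 9 of 19 arrays (1.1 to 77.9) and was called in no comparison. Sting1 encodes the adaptor STING, which relays the detection of cytoplasmic DNA. Sting1 read 207, 168 and 206 in the quiescent samples. Under FGF alone Sting1 read 189 at 1 h, 162 and 266 at 4 h, 325 and 211 at 7 h, and 217 and 165 at 12 h. With U0126 first, Sting1 read 291 at 1 h, 54.3 and 121 at 4 h, 154 and 132 at 7 h and 208 and 169 at 12 h, and the late additions gave 202 at 7 h and 33.3 at 12 h. Its FGF arrays at 4 and 12 h overlapped the quiescent ones, those at 7 h lay above them, and both U0126 arrays at 4 and at 7 h lay below the FGF arrays. The average U0126 effect was -0.68 (SE 0.20, adjusted p = 0.0222). Sting1 lost its average U0126 call without FGF 4 h replicate 2, FGF+U0126 4 h replicate 1, FGF 7 h replicate 1, FGF+U0126 7 h replicate 2, FGF 12 h replicate 1 or FGF+U0126 12 h replicate 2 (log2 difference -0.65 to -0.52, adjusted p 0.0574 to 0.076). Under the replicate block Sting1 was also called lower with U0126 at 4 h (-1.22, adjusted p = 0.0174). A second Sting1 probe set, dimmer on average, gave -1.55 (adjusted p over probe sets = 0.000367).

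Of the 6 signalling and transcription factor genes, 4 were tested, and Irf1 was the member called against quiescent at 4, 7 and 12 h (4.98%, 7.2% and 11.8% of all genes). Irf1 encodes a transcription factor induced by interferon gamma that drives class I pathway genes. Irf1 read 1166, 1455 and 1493 in the quiescent samples. Under FGF alone Irf1 read 991 at 1 h, 708 and 593 at 4 h, 689.5 and 659.5 at 7 h, and 664 and 849 at 12 h. With U0126 first, Irf1 read 1380.4 at 1 h, 501 and 594 at 4 h, 678 and 941 at 7 h and 826 and 859 at 12 h, and the late additions gave 712 at 7 h and 694 at 12 h. Every FGF array from 4 h on, with or without U0126, read below every quiescent array. The difference was -1.09 (SE 0.19, adjusted p = 0.00217) at 4 h, -1.03 (SE 0.19, adjusted p = 0.00208) at 7 h and -0.88 (SE 0.19, adjusted p = 0.00349) at 12 h. Irf1 lost its 12 h call without FGF 12 h replicate 1 (log2 difference -0.71, adjusted p 0.0538). The average U0126 effect was 0.05 (SE 0.11, adjusted p = 0.801).

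Stat2, the subunit of ISGF3 that carries its activation domain, was called for U0126 and, with the probe set used, not against quiescent. Stat2 read 256, 293 and 232 in the quiescent samples. Under FGF alone Stat2 read 225 at 1 h, 216 and 175 at 4 h, 156 and 208 at 7 h, and 188 and 173 at 12 h. With U0126 first, Stat2 read 381 at 1 h, 188 and 212 at 4 h, 242 and 300.1 at 7 h and 331 and 299 at 12 h, and the late additions gave 198 at 7 h and 331 at 12 h. Both FGF arrays at each of 4, 7 and 12 h lay below the quiescent range, while the U0126 arrays at 12 h lay above it. The 12 h difference of FGF from quiescent was -0.45 (adjusted p = 0.194), and U0126 against FGF gave 0.76 (SE 0.23, adjusted p = 0.042) at 12 h and 0.45 (SE 0.13, adjusted p = 0.0237) on average. Stat2 lost its 12 h U0126 call in 4 of 12 other settings and without FGF 12 h replicates 1 or 2 or FGF+U0126 12 h replicates 1 or 2 (log2 difference 0.69 to 0.83, adjusted p 0.0594 to 0.223). Stat2 lost its average U0126 call with the probe set of highest variance and without FGF 4 h replicate 2, FGF+U0126 4 h replicate 2, FGF 7 h replicate 1, FGF+U0126 7 h replicate 2, FGF 12 h replicate 2 or FGF+U0126 12 h replicate 1 (log2 difference 0.38 to 0.55, adjusted p 0.0561 to 0.0724). A second, dimmer Stat2 probe set read 7.2 on the 1 h FGF array against 130.8 to 157.8 in quiescent samples and was called lower there (-2.88, adjusted p over probe sets = 0.00181), where the one used gave -0.15 (adjusted p = 0.889). Irf7, which amplifies interferon production, read 8.5 to 137.9 and was above 45.2 on 15 arrays. Irf7 was called lower at 4 h under the replicate block (-1.57, adjusted p = 0.0336). Irf9, the DNA-binding subunit of ISGF3, read 76.3 to 165.8 and was called in no comparison. Usp18, which encodes a protease that removes ISG15 from proteins, read 3.3 to 48.0 and stayed untested.

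The antiviral effectors gave 3, 3 and 5 lower calls among 14 tested at 4, 7 and 12 h (4.98%, 7.2% and 11.8% of all genes). Ifit1, Ifit2, Ifit3 and Xaf1 were called lower with FGF and higher with U0126. Ifit proteins bind viral RNA or block its translation. Ifit3 read 709.9, 746 and 598 in the quiescent samples. Under FGF alone Ifit3 read 638 at 1 h, 249.5 and 180.4 at 4 h, 170.2 and 148 at 7 h, and 128 and 132 at 12 h. With U0126 first, Ifit3 read 883 at 1 h, 647 and 507 at 4 h, 551 and 424 at 7 h and 519 and 552 at 12 h, and the late additions gave 448 at 7 h and 289 at 12 h. FGF arrays lay below all quiescent arrays at each of 4, 7 and 12 h, and the U0126 arrays lay above the FGF arrays at each of these times. Ifit3 fell by 1.58 at 4 h (SE 0.22, adjusted p = 0.00046), by 1.97 at 7 h (SE 0.22, adjusted p = 6.42e-05) and by 2.23 at 12 h (SE 0.22, adjusted p = 6.93e-06). U0126 against FGF gave 1.38 (SE 0.22, adjusted p = 0.00115) at 4 h, 1.53 (SE 0.22, adjusted p = 0.000424) at 7 h and 1.94 (SE 0.22, adjusted p = 2.78e-05) at 12 h. These Ifit3 calls, and the average of 1.61 (SE 0.12, adjusted p = 3.05e-07), held in all 12 other settings and without any single array.

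Ifit2 was also called lower under FGF and higher with U0126. Ifit2 read 2467, 2344 and 2299.9 in the quiescent samples. Under FGF alone Ifit2 read 2079 at 1 h, 1222 and 1253 at 4 h, 1523 and 1280.5 at 7 h, and 1593 and 1514 at 12 h. With U0126 first, Ifit2 read 2473 at 1 h, 2207 and 1863 at 4 h, 2269.5 and 1684 at 7 h and 2333 and 1943 at 12 h, and the late additions gave 2062 at 7 h and 2102 at 12 h. The FGF arrays lay below the quiescent ones at all 3 times, and both U0126 arrays above both FGF arrays. Ifit2 was -0.92 (SE 0.16, adjusted p = 0.0027) at 4 h, -0.75 (SE 0.16, adjusted p = 0.00709) at 7 h and -0.59 (SE 0.16, adjusted p = 0.017) at 12 h against quiescent. U0126 against FGF gave 0.71 (SE 0.16, adjusted p = 0.0164) at 4 h and 0.55 (SE 0.09, adjusted p = 0.000586) on average. For Ifit2 the replicate block added U0126 calls at 7 h (0.48, adjusted p = 0.0107) and 12 h (0.45, adjusted p = 0.0107). Ifit2 lost its 7 h call without FGF 7 h replicate 2 (log2 difference -0.62, adjusted p 0.0627). Ifit2 lost its 12 h call with no variance trend and without quiescent replicate 2 or FGF 12 h replicates 1 or 2 (log2 difference -0.63 to -0.56, adjusted p 0.0576 to 0.0987). Ifit2 lost its 4 h U0126 call with no variance trend and without FGF 4 h replicates 1 or 2 or FGF+U0126 4 h replicate 1 (log2 difference 0.58 to 0.72, adjusted p 0.0735 to 0.154).

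Ifit1 was dim, above 45.2 on 7 of 19 arrays, so the size of its change depends on the offset added before the logarithm. Ifit1 read 55.3, 23.2 and 59.1 in the quiescent samples. Under FGF alone Ifit1 read 93.4 at 1 h, 10.4 and 9.7 at 4 h, 26.8 and 17.6 at 7 h, and 4.4 and 3.5 at 12 h. With U0126 first, Ifit1 read 64.6 at 1 h, 31.3 and 75 at 4 h, 28.4 and 24.5 at 7 h and 58.4 and 53.4 at 12 h, and the late additions gave 27.5 at 7 h and 5.8 at 12 h. At 12 h the FGF arrays lay at the bottom of all arrays and the U0126 arrays inside the quiescent range. Ifit1 was -1.79 (SE 0.49, adjusted p = 0.0171) at 12 h of FGF, 1.99 (SE 0.49, adjusted p = 0.0144) for U0126 at 12 h and 1.19 (SE 0.28, adjusted p = 0.00626) for the U0126 average. Over the other settings the 12 h FGF difference ran from -3.26 to -0.92. Ifit1 lost its 12 h call with only the compared groups fitted and without quiescent replicate 2 or FGF 12 h replicates 1 or 2 (log2 difference -1.82 to -1.52, adjusted p 0.0524 to 0.152). Ifit1 lost its 12 h U0126 call with only the compared groups fitted and without FGF 12 h replicates 1 or 2 or FGF+U0126 12 h replicates 1 or 2 (log2 difference 1.93 to 2.04, adjusted p 0.0625 to 0.0833).

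Xaf1, an interferon-induced factor that promotes cell death, fell at 4, 7 and 12 h of FGF. Xaf1 read 614, 558 and 522 in the quiescent samples. Under FGF alone Xaf1 read 488 at 1 h, 136 and 123 at 4 h, 135 and 132 at 7 h, and 106 and 87.8 at 12 h. With U0126 first, Xaf1 read 548 at 1 h, 222 and 174 at 4 h, 174 and 135 at 7 h and 218 and 158 at 12 h, and the late additions gave 161 at 7 h and 118 at 12 h. All FGF arrays from 4 h on, with or without U0126, read at most 222 and all quiescent arrays at least 522. Xaf1 was -1.99 (SE 0.25, adjusted p = 0.000197) at 4 h, -1.95 (SE 0.25, adjusted p = 0.000159) at 7 h and -2.36 (SE 0.25, adjusted p = 1.21e-05) at 12 h, and these calls held in all other settings and without any single array. U0126 against FGF gave 0.85 (SE 0.25, adjusted p = 0.0341) at 12 h and 0.53 (SE 0.14, adjusted p = 0.0133) on average. Xaf1 lost its 12 h U0126 call in 4 of 12 other settings and without FGF 12 h replicates 1 or 2 or FGF+U0126 12 h replicate 1 (log2 difference 0.64 to 0.97, adjusted p 0.0607 to 0.254). A second probe set of Xaf1 gave -1.61 at 12 h of FGF (adjusted p over probe sets = 0.00301). For the average U0126 effect it gave 0.435 and did not pass (adjusted p over probe sets = 0.136).

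Ifi35, an interferon-induced leucine zipper protein, was called at 12 h. Ifi35 read 4011, 3442 and 3309.5 in the quiescent samples. Under FGF alone Ifi35 read 3791 at 1 h, 2855 and 2586 at 4 h, 3520.4 and 2192 at 7 h, and 2172 and 1991 at 12 h. With U0126 first, Ifi35 read 3771 at 1 h, 3031 and 3114 at 4 h, 3671 and 2642 at 7 h and 2854 and 2623 at 12 h, and the late additions gave 3587 at 7 h and 2362 at 12 h. The 12 h FGF arrays lay below all quiescent and all U0126 arrays, while at 7 h the groups overlapped. Ifi35 was -0.75 (SE 0.20, adjusted p = 0.0132) at 12 h, and with the replicate block its average U0126 effect was called (0.24, adjusted p = 0.0272). Ifi35 lost its 12 h call with no variance trend and without FGF 12 h replicate 2 (log2 difference -0.75 to -0.69, adjusted p 0.0598 to 0.0902). Its other probe sets gave -0.35 and -0.09 at 12 h, neither passing.

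**Figure D2:**
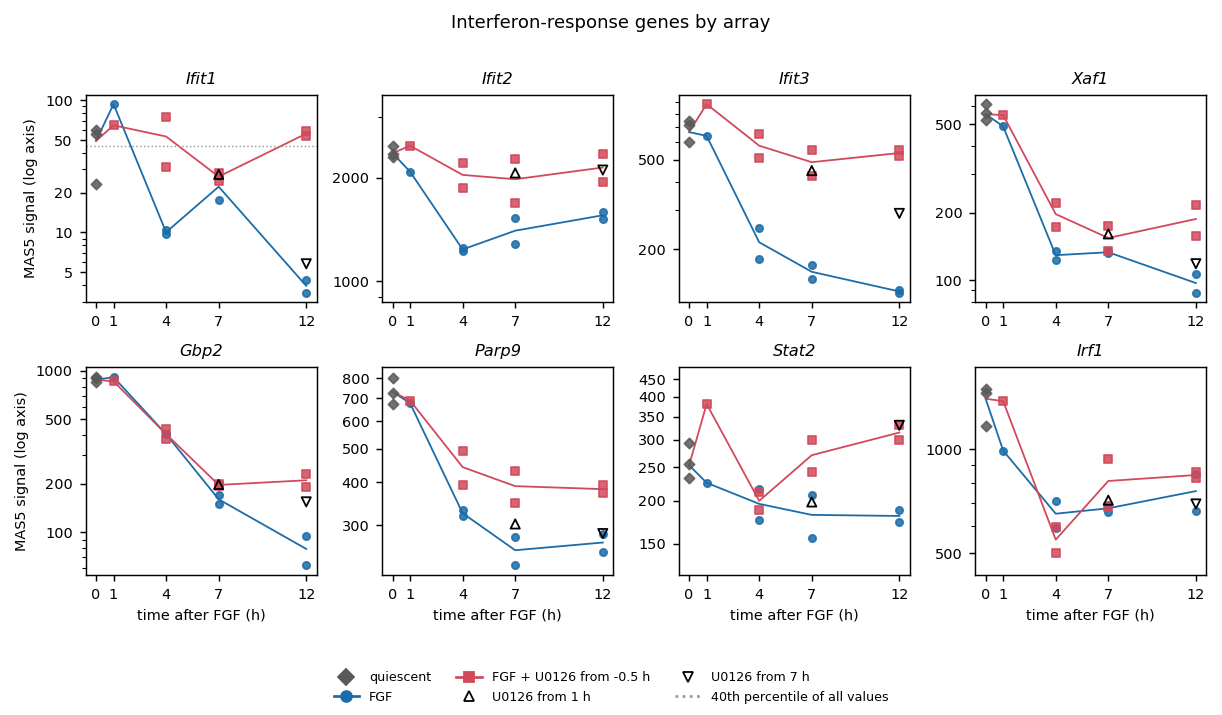
Signal of 8 members on each array (log axis) against hours after FGF, for quiescent cells, FGF, FGF+U0126 and the late additions of U0126 (triangles). Lines join group means and a dotted line marks 45.2 where it falls in the panel. Ifit3 ends at 128 and 132 with FGF alone and at 519 and 552 with U0126, while Irf1 ends at 664 and 849 with FGF and at 826 and 859 with U0126.

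With the probe sets used, the other 9 tested effectors were called in no comparison of FGF alone with quiescent and not for the average U0126 effect. Eif2ak2, the double-stranded RNA-activated kinase PKR, read 217.7 to 604.1 and reached -0.35 (adjusted p = 0.064) for U0126, a call with the replicate block (-0.35, adjusted p = 0.0277). Bst2, which tethers budding virus to the cell surface, read 143.5 to 431.6, and its 12 h difference was -0.04 (adjusted p = 0.942). Adar, an enzyme that edits double-stranded RNA, read 454.1 to 790.1, with 0.39 (adjusted p = 0.142) at 12 h of FGF. Samhd1, which breaks down the nucleotides used for DNA synthesis, read 387.0 to 646.7. Lgals3bp, a secreted glycoprotein, read 235.5 to 425.1. Rsad2 was above 45.2 on 15 of 19 arrays (5.4 to 127.8). Cmpk2, Mx1 and Rtp4 were dim, above it on 2, 4 and 10 arrays. Their lowest signals were 5.4, 3.8 and 5.2 and their highest 54.4, 66.8 and 86.7. Oasl2 and Mx2 exceeded 45.2 on no array, with highest signals of 34.9 and 13.4.

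Among 5 genes of ubiquitin and ADP-ribose ligases, 2 were lower at 4 h, 2 at 7 h and 3 at 12 h (4.98%, 7.2% and 11.8% of all genes). Parp9 and Dtx3l encode partner proteins, and their genes overlap at one end on chromosome 16 (chr16:35938470-35972621 and chr16:35926515-35939027). Parp9 read 674, 803 and 723 in the quiescent samples. Under FGF alone Parp9 read 677 at 1 h, 332 and 318 at 4 h, 277 and 230.4 at 7 h, and 283 and 251 at 12 h. With U0126 first, Parp9 read 689 at 1 h, 391 and 493 at 4 h, 348 and 430.3 at 7 h and 372 and 391 at 12 h, and the late additions gave 302 at 7 h and 284 at 12 h. FGF arrays lay lowest at each of 4, 7 and 12 h, U0126 arrays in the middle and quiescent arrays highest, with no overlap. Parp9 was -1.14 (SE 0.19, adjusted p = 0.00185) at 4 h, -1.48 (SE 0.19, adjusted p = 0.000181) at 7 h and -1.41 (SE 0.19, adjusted p = 0.000111) at 12 h, and 0.50 (SE 0.11, adjusted p = 0.00374) for the U0126 average. These 4 calls held in all 12 other settings and without any single array. Parp9 was also called for U0126 at 7 h under the replicate block (0.59, adjusted p = 0.0348).

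Dtx3l read 542, 604 and 783 in the quiescent samples. Under FGF alone Dtx3l read 469 at 1 h, 313 and 237 at 4 h, 276 and 303 at 7 h, and 409 and 294 at 12 h. With U0126 first, Dtx3l read 634 at 1 h, 292 and 305 at 4 h, 279 and 326 at 7 h and 483 and 369.9 at 12 h, and the late additions gave 271 at 7 h and 374 at 12 h. All FGF arrays from 4 h on lay below the quiescent ones, and FGF and U0126 arrays overlapped at each time. Dtx3l was -1.26 (SE 0.23, adjusted p = 0.0035) at 4 h, -1.17 (SE 0.23, adjusted p = 0.00379) at 7 h and -0.92 (SE 0.23, adjusted p = 0.0105) at 12 h, and 0.15 (adjusted p = 0.501) for the U0126 average. Dtx3l lost its 4 h call without quiescent replicate 2 or FGF 4 h replicate 2 (log2 difference -1.07 to -1.03, adjusted p 0.0524 to 0.0588). Dtx3l lost its 7 h call without quiescent replicate 2 (log2 difference -0.95, adjusted p 0.0658). Dtx3l lost its 12 h call without quiescent replicate 2 or FGF 12 h replicate 2 (log2 difference -0.70 to -0.69, adjusted p 0.121 to 0.136). Its second probe set gave -1.28 at 12 h (adjusted p over probe sets = 0.00339).

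Trim25, the ubiquitin ligase that activates RIG-I, had the opposite sign for U0126. Trim25 read 2144, 2323 and 2426 in the quiescent samples. Under FGF alone Trim25 read 2120.5 at 1 h, 2724 and 2822 at 4 h, 2380.4 and 2276 at 7 h, and 1760.2 and 1726 at 12 h. With U0126 first, Trim25 read 1981 at 1 h, 1493 and 1593 at 4 h, 1749 and 1384 at 7 h and 1617 and 1651 at 12 h, and the late additions gave 1599 at 7 h and 1454 at 12 h. At 4 h the FGF arrays lay above the quiescent range and at 12 h below it, while the U0126 arrays lay below the quiescent and the FGF arrays at all 3 times. FGF against quiescent was 0.25 (adjusted p = 0.306) at 4 h and -0.41 (SE 0.13, adjusted p = 0.0402) at 12 h. U0126 against FGF was -0.84 (SE 0.13, adjusted p = 0.00127) at 4 h, -0.58 (SE 0.13, adjusted p = 0.017) at 7 h and -0.50 (SE 0.08, adjusted p = 0.000232) on average, against -0.09 (adjusted p = 0.78) at 12 h. Trim25 lost its 12 h call in 5 of 12 other settings and without quiescent replicates 1b or 2 or FGF 12 h replicates 1 or 2 (log2 difference -0.44 to -0.35, adjusted p 0.058 to 0.227). Trim25 lost its 7 h U0126 call in 3 of 12 other settings and without FGF 7 h replicates 1 or 2 or FGF+U0126 7 h replicate 2 (log2 difference -0.61 to -0.35, adjusted p 0.0654 to 0.309). Trim21, an antibody-binding ubiquitin ligase, read 193.4 to 404.2, with -0.46 (adjusted p = 0.176) at 12 h of FGF. Parp14, an ADP-ribosyltransferase, was above 45.2 on 16 arrays (3.9 to 134.7), with -0.68 (adjusted p = 0.257) at 12 h.

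Interferon-inducible GTPases gave 1, 2 and 4 lower calls among 6 tested at 4, 7 and 12 h (4.98%, 7.2% and 11.8% of all genes). These proteins attack vacuoles that hold intracellular parasites and bacteria. Gbp2 read 905, 919.6 and 848 in the quiescent samples. Under FGF alone Gbp2 read 915 at 1 h, 404 and 408 at 4 h, 169.6 and 151 at 7 h, and 95.4 and 62.3 at 12 h. With U0126 first, Gbp2 read 861 at 1 h, 433 and 378 at 4 h, 199 and 194 at 7 h and 191 and 229 at 12 h, and the late additions gave 198 at 7 h and 154 at 12 h. Gbp2 arrays with FGF lay lower at 12 h than at 7 h and lower at 7 h than at 4 h, and at 12 h the U0126 arrays read 191 and 229 against 95.4 and 62.3. Gbp2 was -1.09 (SE 0.21, adjusted p = 0.00524) at 4 h, -2.36 (SE 0.21, adjusted p = 1.25e-05) at 7 h and -3.30 (SE 0.21, adjusted p = 3.92e-07) at 12 h, and these calls held in all other settings and without any single array. U0126 against FGF gave 1.29 (SE 0.21, adjusted p = 0.000857) at 12 h and 0.52 (SE 0.12, adjusted p = 0.00644) on average. Gbp2 lost its 12 h U0126 call with the probe set of highest variance (log2 difference 1.03, adjusted p 0.0971). Gbp2 lost its average U0126 call with the probe set of highest variance (log2 difference 0.22, adjusted p 0.585). The second probe set gave -3.44 at 12 h of FGF (adjusted p over probe sets = 1.19e-05).

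Gbp3 read 82.4, 96.7 and 54.2 in the quiescent samples. Under FGF alone Gbp3 read 42.3 at 1 h, 27.6 and 26.8 at 4 h, 13.4 and 8.7 at 7 h, and 1 and 15.1 at 12 h. With U0126 first, Gbp3 read 62.7 at 1 h, 38 and 53.9 at 4 h, 19 and 8.1 at 7 h and 3.7 and 22.9 at 12 h, and the late additions gave 17.7 at 7 h and 9.6 at 12 h. Gbp3 was above 45.2 on 5 of 19 arrays, and its FGF arrays from 4 h on lay below all quiescent ones. It was -2.03 (SE 0.57, adjusted p = 0.0195) at 12 h, with -3.64 to -1.13 over the other settings, and with the replicate block it was called at 7 h (-1.77, adjusted p = 0.0341). Gbp3 lost its 12 h call without quiescent replicate 2 or FGF 12 h replicate 1 (log2 difference -2.33 to -1.54, adjusted p 0.0556 to 0.158). Igtp, the GTPase Irgm3, was called at 12 h. Igtp read 281, 206 and 161 in the quiescent samples. Under FGF alone Igtp read 209 at 1 h, 119 and 78.4 at 4 h, 138 and 66.2 at 7 h, and 96.5 and 21.4 at 12 h. With U0126 first, Igtp read 284 at 1 h, 73.6 and 155 at 4 h, 108 and 107 at 7 h and 84.8 and 115 at 12 h, and the late additions gave 144 at 7 h and 79.8 at 12 h. FGF and U0126 arrays of Igtp from 4 h on lay below the quiescent ones and overlapped each other. Igtp was -1.76 (SE 0.49, adjusted p = 0.0198) at 12 h. Igtp lost its 12 h call with no variance trend and without FGF 12 h replicate 2 (log2 difference -1.76 to -0.94, adjusted p 0.0589 to 0.253).

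Irgm1 regulates other GTPases of its family. Irgm1 read 646, 851 and 600.2 in the quiescent samples. Under FGF alone Irgm1 read 564 at 1 h, 532 and 446 at 4 h, 379 and 409 at 7 h, and 423 and 349.6 at 12 h. With U0126 first, Irgm1 read 511 at 1 h, 372 and 312 at 4 h, 383 and 364 at 7 h and 549 and 432 at 12 h, and the late additions gave 393 at 7 h and 433 at 12 h. All arrays from 4 h on lay below the quiescent range, and at 4 h the U0126 arrays were the lower ones. Irgm1 was -0.74 (SE 0.20, adjusted p = 0.0219) at 7 h and -0.77 (SE 0.20, adjusted p = 0.011) at 12 h of FGF, and -0.08 (adjusted p = 0.7) for the U0126 average. Irgm1 lost its 7 h call with only the compared groups fitted and without FGF 7 h replicates 1 or 2 (log2 difference -0.79 to -0.69, adjusted p 0.0567 to 0.116). Irgm1 lost its 12 h call without FGF 12 h replicate 2 (log2 difference -0.64, adjusted p 0.102). Irgm1 was called lower with U0126 at 4 h under the replicate block (-0.50, adjusted p = 0.0444). Iigp1 and Ifi47 were each above 45.2 on 12 arrays, with ranges of 5.5 to 80.2 and 9.8 to 154.7, and were called in no comparison.

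In antigen presentation, Psmb9 and Tap1 were called lower at 4 and 7 h of FGF and Psmb10, Tap2 and Tapbp at 12 h, while the class I chains themselves were called in no comparison without the replicate block. Of 8 tested genes 2 were lower at 4 h, 2 at 7 h and 3 at 12 h (4.98%, 7.2% and 11.8% of all genes). Psmb9 encodes an immunoproteasome subunit and Tap1 a chain of the peptide transporter, and the genes lie head to head on chromosome 17 (chr17:34182030-34187330 and chr17:34187556-34197225). The 225 bases between them, chr17:34187331-34187555, are shown because the pair was called at the same times. This stretch held 0 ISRE-like and 0 GAS-like matches, which says only that these letters are not in it.
Psmb9 to Tap1 gap, plus strand: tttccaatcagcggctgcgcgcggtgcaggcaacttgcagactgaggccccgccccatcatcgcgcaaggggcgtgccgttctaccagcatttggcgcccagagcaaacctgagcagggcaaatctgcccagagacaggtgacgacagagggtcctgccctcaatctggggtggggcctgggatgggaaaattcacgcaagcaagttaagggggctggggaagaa

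Psmb9 read 179, 208 and 206 in the quiescent samples. Under FGF alone Psmb9 read 223 at 1 h, 80.8 and 78.8 at 4 h, 86.9 and 94.6 at 7 h, and 155 and 125 at 12 h. With U0126 first, Psmb9 read 178 at 1 h, 129.8 and 116 at 4 h, 56.4 and 104 at 7 h and 67.3 and 112 at 12 h, and the late additions gave 53.6 at 7 h and 126.3 at 12 h. FGF arrays of Psmb9 at 4 and 7 h read at most 94.6 and the quiescent ones at least 179, with the 12 h arrays in between. Psmb9 was -1.19 (SE 0.32, adjusted p = 0.032) at 4 h, -1.03 (SE 0.32, adjusted p = 0.0488) at 7 h and -0.48 (adjusted p = 0.356) at 12 h. Psmb9 lost its 4 h call with no filter on dim probe sets or the probe set of highest variance and without quiescent replicate 2 or FGF 4 h replicates 1 or 2 (log2 difference -1.20 to -1.14, adjusted p 0.057 to 0.176). Psmb9 lost its 7 h call in 6 of 12 other settings and without quiescent replicates 1b or 2 or FGF 7 h replicates 1 or 2 (log2 difference -1.13 to -0.97, adjusted p 0.0602 to 0.224).

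Tap1 read 221, 254 and 354 in the quiescent samples. Under FGF alone Tap1 read 178 at 1 h, 119.8 and 139 at 4 h, 139 and 150 at 7 h, and 224 and 221 at 12 h. With U0126 first, Tap1 read 269 at 1 h, 187 and 242 at 4 h, 141 and 152 at 7 h and 196 and 265 at 12 h, and the late additions gave 138 at 7 h and 203 at 12 h. Tap1 arrays with FGF lay below the quiescent range at 4 and 7 h and overlapped it at 12 h. Tap1 was -1.09 (SE 0.26, adjusted p = 0.0151) at 4 h, -0.94 (SE 0.26, adjusted p = 0.0256) at 7 h and -0.36 (adjusted p = 0.387) at 12 h. Tap1 lost its 4 h call with the probe set of highest variance and without quiescent replicate 2 or FGF 4 h replicates 1 or 2 (log2 difference -1.19 to -0.81, adjusted p 0.061 to 0.5). Tap1 lost its 7 h call with the probe set of highest variance or only the compared groups fitted and without quiescent replicate 2 or FGF 7 h replicates 1 or 2 (log2 difference -0.99 to 0.57, adjusted p 0.0673 to 0.697). The 7 h difference turned to 0.57 with the probe set of highest variance, which was near background. Whether 12 h differed from 4 or 7 h was not tested.

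Psmb10 encodes another immunoproteasome subunit. Psmb10 read 1464, 1389 and 1423 in the quiescent samples. Under FGF alone Psmb10 read 1443 at 1 h, 1325 and 1432 at 4 h, 1057 and 1225 at 7 h, and 1076 and 974 at 12 h. With U0126 first, Psmb10 read 1374 at 1 h, 1169.7 and 1326 at 4 h, 880.3 and 852 at 7 h and 839 and 659.9 at 12 h, and the late additions gave 949 at 7 h and 891 at 12 h. FGF arrays of Psmb10 lay below the quiescent ones at 7 and 12 h, and the U0126 arrays lay below the FGF arrays at both times. Psmb10 was -0.47 (SE 0.15, adjusted p = 0.0401) at 12 h of FGF and -0.33 (SE 0.09, adjusted p = 0.0136) for the U0126 average. With the replicate block it was also called lower with U0126 at 12 h (-0.45, adjusted p = 0.0234). Psmb10 lost its 12 h call in 4 of 12 other settings and without quiescent replicate 2 or FGF 12 h replicates 1 or 2 (log2 difference -0.54 to -0.40, adjusted p 0.0605 to 0.21).

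Tap2 read 660, 731 and 854 in the quiescent samples. Under FGF alone Tap2 read 565 at 1 h, 588 and 558 at 4 h, 482 and 543 at 7 h, and 537 and 497 at 12 h. With U0126 first, Tap2 read 607 at 1 h, 568 and 680.2 at 4 h, 442 and 553 at 7 h and 533 and 661 at 12 h, and the late additions gave 442 at 7 h and 477 at 12 h. Tap2, the partner chain of TAP1, lay below the quiescent range in all FGF arrays from 4 h on. It was -0.56 (SE 0.19, adjusted p = 0.0436) at 12 h, and with the replicate block it was called at 7 h (-0.58, adjusted p = 0.01). Tap2 lost its 12 h call in 4 of 12 other settings and without quiescent replicates 1b or 2 or FGF 12 h replicates 1 or 2 (log2 difference -0.62 to -0.42, adjusted p 0.0513 to 0.304). Tapbp encodes tapasin, which holds class I molecules at the transporter. Tapbp read 3769, 3494 and 2723 in the quiescent samples. Under FGF alone Tapbp read 3363 at 1 h, 2686 and 2450.4 at 4 h, 2856 and 2062 at 7 h, and 2164 and 1804 at 12 h. With U0126 first, Tapbp read 3992 at 1 h, 2983 and 2369 at 4 h, 2829.7 and 2413 at 7 h and 2469 and 2066 at 12 h, and the late additions gave 2916 at 7 h and 2626 at 12 h. The Tapbp arrays of FGF at 12 h lay below all quiescent arrays, and those at 7 h overlapped them. Tapbp was -0.67 (SE 0.19, adjusted p = 0.022) at 12 h, and with the replicate block it was called at 7 h (-0.37, adjusted p = 0.0173). Tapbp lost its 12 h call with no variance trend and without FGF 12 h replicate 2 (log2 difference -0.67 to -0.54, adjusted p 0.0797 to 0.17). A second Tapbp probe set gave -0.38 at 12 h (adjusted p over probe sets = 0.186).

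B2m, the light chain of class I molecules, read 11920 to 21394, and H2-K1 and H2-D1, heavy chains, read 5221 to 7120 and 8654 to 13003. At 12 h of FGF their differences were -0.28 (adjusted p = 0.409), -0.11 (adjusted p = 0.604) and -0.06 (adjusted p = 0.869). With the replicate block B2m was called higher for U0126 at 12 h (0.41, adjusted p = 0.0254) and on average (0.27, adjusted p = 0.00749). Probe sets of H2-K1 and H2-D1 are of a type that can bind related class I sequences, so their signals are uncertain as single genes. Psmb8, the third immunoproteasome subunit, exceeded 45.2 on 1 array (2.3 to 58.3) and stayed untested.

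**Figure D3:**
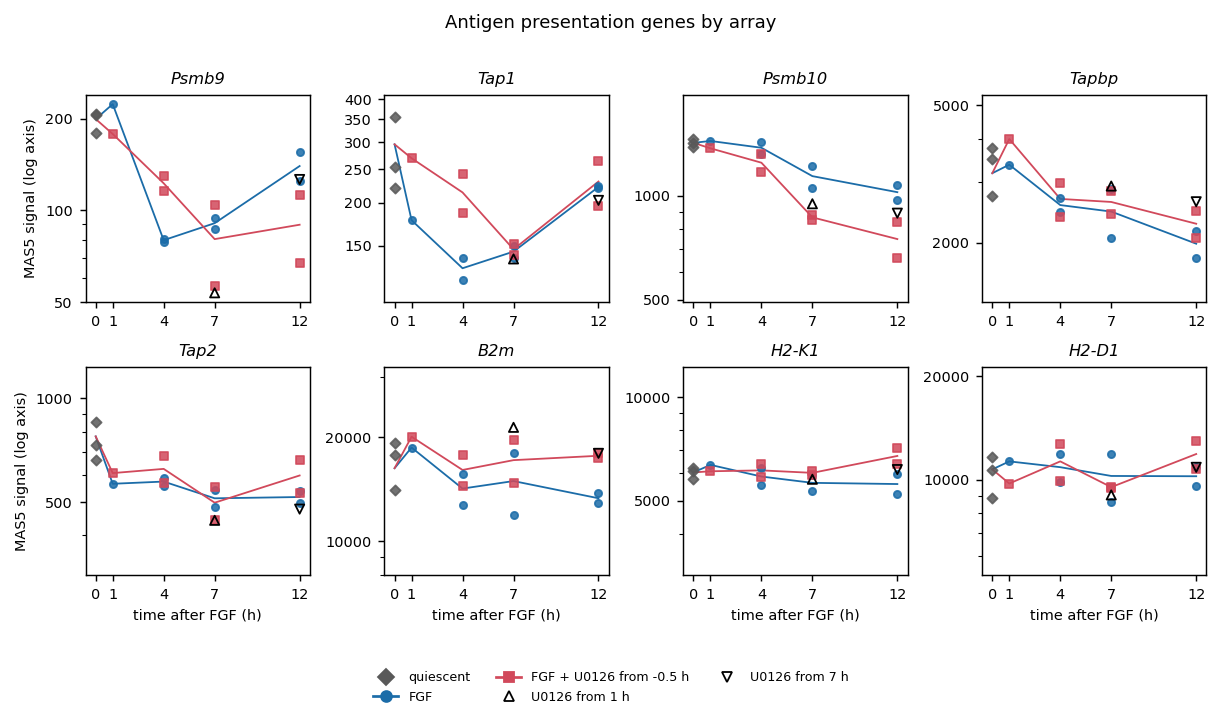
Signal of 8 antigen presentation genes on each array (log axis) against hours after FGF, drawn as for the effector genes. Psmb9 and Tap1 dip at 4 and 7 h of FGF (78.8 to 94.6 and 120 to 150), while H2-K1 stays between 5221 and 7120 on every array.

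Members were also called lower when U0126 was present with FGF, with 8 lower and 0 higher of 41 at 4 h, 14 and 0 at 7 h, and 6 and 0 at 12 h. The shares of all genes were 4.07% lower and 3.31% higher at 4 h, 5.33% and 3.73% at 7 h, and 2.99% and 2.43% at 12 h. Without quiescent replicate 2 the counts were 4, 4 and 3. They were 4 without FGF+U0126 4 h replicate 1, 5 without FGF+U0126 4 h replicate 2, 4 without FGF+U0126 7 h replicate 1, 9 without FGF+U0126 7 h replicate 2, and 3 without either FGF+U0126 12 h replicate. Calls over all genes also fell in each of these fits with an array left out. At an unadjusted p under 0.05, 1 member was higher at each time. In either direction 12, 16 and 14 members were under it at 4, 7 and 12 h, against 2887, 3268 and 2773 of 14996 genes. Medians over the members were -0.30, -0.44 and -0.33. These comparisons share the quiescent arrays with those of FGF alone, so values are given side by side. Gbp2 with U0126 was -1.09, -2.09 and -2.00 at 4, 7 and 12 h, against -1.09, -2.36 and -3.30 with FGF alone. Xaf1 was -1.43, -1.76 and -1.51, against -1.99, -1.95 and -2.36. Irf1 was -1.33, -0.79 and -0.72, and Parp9 -0.72, -0.89 and -0.91, all called. Trim25 was -0.59, -0.58 and -0.51, also called. Ifit3, in contrast to its calls with FGF alone, was -0.20, -0.44 and -0.30, with adjusted p of 0.714, 0.26 and 0.541.

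The other calls with U0126 present were Dtx3l (-1.13 at 4 h, -1.12 at 7 h), Irgm1 (-0.94 and -0.82), Eif2ak2 at 4 h (-0.82), and Psmb10 (-0.71 at 7 h, -0.92 at 12 h). At 7 h they also included Ddx58 (-1.01), Samhd1 (-0.61), Trim21 (-0.75), Psmb9 (-1.23), Tap1 (-0.92) and Tap2 (-0.63). Samhd1 turned to 0.64 with its probe set of highest variance. In the 12 other settings the 4 h calls with U0126 present were lost by Eif2ak2 in 3, Trim25 in 2, Parp9 in 4 and Gbp2 in 1. In the 12 other settings the 7 h calls with U0126 present were lost by Ddx58 in 1, Irf1 in 1, Samhd1 in 2, Trim21 in 8, Trim25 in 3, Psmb9 in 1, Tap1 in 4 and Tap2 in 7. In the 12 other settings the 12 h calls with U0126 present were lost by Irf1 in 3 and Trim25 in 5. At 4 h without quiescent replicate 1b, Parp9 no longer passed (log2 difference -0.65, adjusted p 0.0613). At 4 h without quiescent replicate 2, Eif2ak2, Trim25, Parp9 and Dtx3l no longer passed (log2 difference -1.0 to -0.53, adjusted p 0.0678 to 0.172). At 4 h without FGF+U0126 4 h replicate 1, Eif2ak2, Trim25, Parp9 and Dtx3l no longer passed (log2 difference -1.10 to -0.54, adjusted p 0.053 to 0.268). At 4 h without FGF+U0126 4 h replicate 2, Trim25, Parp9, Gbp2 and Irgm1 no longer passed (log2 difference -1.0 to -0.64, adjusted p 0.052 to 0.0795). At 7 h without quiescent replicate 1b, Trim21, Tap1 and Tap2 no longer passed (log2 difference -0.88 to -0.59, adjusted p 0.0645 to 0.0868). At 7 h without quiescent replicate 2, Irf1, Samhd1, Trim21, Trim25, Parp9, Dtx3l, Psmb9, Psmb10, Tap1 and Tap2 no longer passed (log2 difference -1.18 to -0.48, adjusted p 0.0659 to 0.36). At 7 h without FGF+U0126 7 h replicate 1, Irf1, Samhd1, Trim21, Parp9, Dtx3l, Irgm1, Psmb9, Psmb10, Tap1 and Tap2 no longer passed (log2 difference -1.01 to -0.47, adjusted p 0.0622 to 0.358). At 7 h without FGF+U0126 7 h replicate 2, Samhd1, Trim21, Trim25, Irgm1, Tap1 and Tap2 no longer passed (log2 difference -0.97 to -0.41, adjusted p 0.0513 to 0.124). At 12 h without quiescent replicate 1b, Irf1 and Trim25 no longer passed (log2 difference -0.64 to -0.48, adjusted p 0.0658 to 0.0818). At 12 h without quiescent replicate 2, Irf1, Trim25 and Parp9 no longer passed (log2 difference -0.92 to -0.45, adjusted p 0.0827 to 0.28). At 12 h without FGF+U0126 12 h replicate 1, Irf1, Trim25 and Parp9 no longer passed (log2 difference -0.88 to -0.49, adjusted p 0.0855 to 0.193). At 12 h without FGF+U0126 12 h replicate 2, Irf1, Trim25 and Parp9 no longer passed (log2 difference -0.95 to -0.52, adjusted p 0.053 to 0.137). With the replicate block Adar was called higher at 4 h (0.54, adjusted p = 0.021) and 7 h (0.56, adjusted p = 0.0147). The block also added Sting1 at 4 h (-1.13, adjusted p = 0.0233), Ddx58 at 4 h (-0.50, adjusted p = 0.0467) and 12 h (-0.58, adjusted p = 0.0246), Psmb9 at 12 h (-1.08, adjusted p = 0.0244) and Tapbp at 12 h (-0.47, adjusted p = 0.00548).

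**Figure D4:**
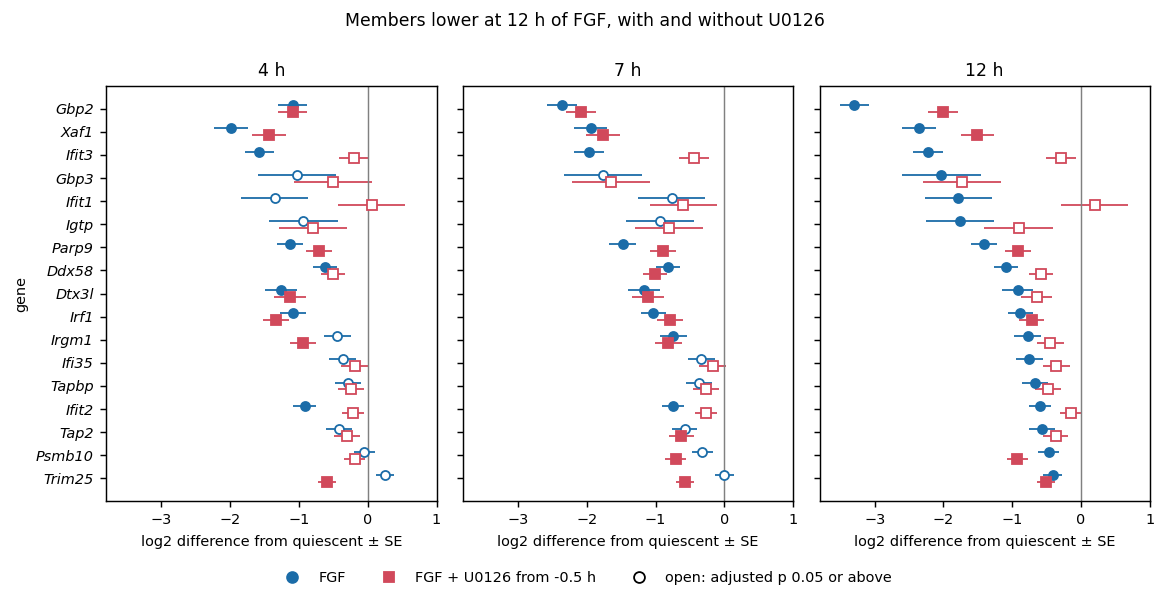
Log2 difference from quiescent with its SE for the 17 members lower at 12 h of FGF, at 4, 7 and 12 h, for FGF alone and FGF+U0126; open points did not pass. At 12 h Ifit3 stands at -2.23 with FGF alone and at -0.30 with U0126, while Gbp2 stands at -3.30 and -2.00.

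U0126 against FGF alone, which shares the FGF arrays with the comparisons above, shows which member levels differed with the inhibitor present. No group received U0126 without FGF, and none another MEK inhibitor. Loss of MEK activity and other effects of U0126 therefore cannot be told apart. At 4 h 2 members were higher and 1 lower (3.2% and 2.73% of all genes). At 7 h 1 was higher and 1 lower (3.03% and 3.04%). At 12 h 5 were higher and 0 lower (6.26% and 5.79%). Averaged over the times, 7 were higher and 3 lower (11.7% and 10.3%), with a member median of 0.14. Leaving out either FGF 7 h replicate left 1 call at 7 h. At 12 h the number called was 2 when FGF 12 h replicate 1 was left out, and 3 when replicate 2 or either FGF+U0126 12 h replicate was. The higher ones were Ifit3, Ifit1, Ifit2, Xaf1, Gbp2, Parp9 and Stat2, and the lower ones Sting1, Trim25 and Psmb10. The counts at 4 and 7 h, and that of lower members on average, are near the shares of all genes. Fibroblast markers moved in both directions with U0126, with Pdgfra at -1.23 and Thy1 at 0.42 on average, and their part was not tested. By replicate, and as a description of genes chosen on the same arrays, the 6 pairs of U0126 and FGF samples of the same experiment and time gave higher values in 6 of 6 for Ifit1, Ifit2, Ifit3, Xaf1 and Parp9, 5 of 6 for Gbp2 and Stat2, 0 of 6 for Trim25 and Psmb10, and 1 of 6 for Sting1. Members not called on average also reached 6 of 6 (Bst2, Adar, Ifi35, B2m and H2-K1) and 0 of 6 (Eif2ak2). A limma F test of the U0126 effect across 4, 7 and 12 h called 0 of 41 members (1.03% of all genes). At an unadjusted p under 0.05 it had 4 of the 41, near the share of all genes (1296 of 14996). Under the replicate block it called Gbp2 (adjusted p = 0.0219) and Trim25 (adjusted p = 0.0327).

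The late additions had 1 array each. U0126 from 1 h, against FGF alone at 7 h, gave 1 member higher and 0 lower (1.68% and 1.91% of all genes). That member was Ifit3, at 448 against 170.2 and 148, a difference of 1.42 (SE 0.26, adjusted p = 0.00596) that held in all settings run and without either FGF array. U0126 from 7 h, against FGF alone at 12 h, gave 1 higher and 2 lower (2.47% and 2.58%), and 1 call in all without FGF 12 h replicate 1. Ifit3 read 289 against 128 and 132, a difference of 1.07 (SE 0.26, adjusted p = 0.0292). Ifit3 lost its call with no variance trend or the probe set of highest variance and without FGF 12 h replicates 1 or 2 (log2 difference 1.06 to 1.09, adjusted p 0.0503 to 0.102). Sting1 read 33.3 against 217 and 165, at -2.11 (SE 0.42, adjusted p = 0.00866), and Parp14 read 3.9 against 74.6 and 32.9, at -1.87 (SE 0.47, adjusted p = 0.0314), both on a lone array that was also below 45.2. Sting1 lost its call with the probe set of highest variance and without FGF 12 h replicate 1 (log2 difference -1.93 to -1.38, adjusted p 0.0534 to 0.236). Parp14 lost its call in 3 of 11 other settings and without FGF 12 h replicate 1 (log2 difference -1.87 to -0.51, adjusted p 0.0516 to 0.88). With the replicate block Trim25 was called lower with U0126 from 1 h (-0.55, adjusted p = 0.0277) and Gbp2 higher with U0126 from 7 h (0.83, adjusted p = 0.0357).

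At 1 h, with 1 array each, FGF+U0126 minus FGF had a member median of 0.00132 and ran from -0.58 (Cmpk2) to 1.47 (Mx1), both dim genes. It was above 0 for 21 of 41 members and past 1 in either direction for 2, against 11.5% of all genes. No test was made of these lone arrays against each other.

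Genes around these members were taken from lists of the same pathways. Counts in these lists stand beside shares of all genes of 11.8% lower and 8.55% higher at 12 h of FGF, and 10.3% lower and 11.7% higher with U0126 on average. Of 14 tested genes of interferon ligands, receptors and JAK-STAT signalling, 0 were lower and 1 higher at 4 h of FGF (4.98% and 3.92% of all genes), and 1 was lower and 1 higher at 12 h (median -0.09). The interferon genes were dim, with Ifnb1 at 21.2 to 97.3 and Ifna1 at 4.3 to 105.6, and neither was called. Ifnar1 and Ifnar2, the type I receptor chains, were above 45.2 on all arrays, at -0.05 (adjusted p = 0.899) and -0.57 (adjusted p = 0.176) at 12 h of FGF. Ifngr2, a chain of the interferon gamma receptor, rose by 1.41 (SE 0.20, adjusted p = 0.00062) at 4 h and 0.91 (SE 0.20, adjusted p = 0.0051) at 12 h, and was -1.03 (SE 0.12, adjusted p = 1.43e-05) with U0126 on average. Stat3, a STAT activated by interleukin 6 family cytokines, was -1.13 (SE 0.14, adjusted p = 7.29e-05) at 12 h. Socs3 and Socs1, feedback inhibitors of JAK signalling, were -0.82 (adjusted p = 1.98e-05) and -0.68 (adjusted p = 0.0256) with U0126, and Ifngr1 was -0.46 (adjusted p = 0.0472). With U0126 on average 4 of the 14 were lower and 0 higher.

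Of 10 tested sensor adaptors, kinases and other IRF genes, 3 were lower and 1 higher at 12 h of FGF (median -0.41). Cgas, the sensor that makes the STING ligand, rose by 0.76 at 4 h, 1.42 at 7 h and 2.08 (SE 0.18, adjusted p = 2.49e-06) at 12 h. Its U0126 effect was -1.25 (SE 0.18, adjusted p = 0.000226) at 12 h and differed between times (limma's F test, adjusted p = 0.0265). Ticam1, the adaptor TRIF, was -1.68 (SE 0.29, adjusted p = 0.000879) at 12 h and 0.89 (SE 0.17, adjusted p = 0.00135) for the U0126 average. Tlr3 and Ikbke, a double-stranded RNA receptor and a kinase that activates IRF3, were -0.72 (adjusted p = 0.0131) and -0.81 (adjusted p = 0.0334) at 12 h.

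Among 37 tested further interferon-stimulated genes, 1 was lower and 1 higher at 4 h of FGF (4.98% and 3.92% of all genes). At 7 h 6 were lower and 2 higher (7.2% and 5.45%). At 12 h 6 were lower and 1 higher (11.8% and 8.55%, median -0.25). With U0126 on average 4 were higher and 2 lower, both under the shares of all genes. Isg20, an antiviral exonuclease, was -1.51 (SE 0.29, adjusted p = 0.00153) at 12 h and 1.19 (SE 0.16, adjusted p = 9.45e-05) with U0126. Ifi27 was -0.94 (adjusted p = 0.000406) at 12 h and 0.27 (adjusted p = 0.0345) with U0126, and Trafd1, a brake on innate signalling, -0.98 (adjusted p = 0.000568) and 0.41 (adjusted p = 0.005). Uba7, the activating enzyme for ISG15, was -1.59 (adjusted p = 0.0029) at 12 h. Pml, the organiser of nuclear bodies, and Ifitm2, which blocks virus entry, were -1.08 (adjusted p = 0.00076) and -0.36 (adjusted p = 0.00282) with U0126.

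Of 10 tested other class I and peptide-loading genes, 2 were lower and 1 higher at 12 h of FGF (median 0.00). Psme3, a proteasome activator subunit not tied to interferon, rose by 1.00 (SE 0.14, adjusted p = 0.000148). H2-M3, a class I heavy chain for formylated peptides, was -0.63 (adjusted p = 0.0102) and Erap1, which trims peptides, -0.55 (adjusted p = 0.0295). Nlrc5, the transactivator of class I genes, was 0.66 (adjusted p = 0.0111) and the chaperone gene Calr 0.27 (adjusted p = 0.0224) with U0126. Among 3 constitutive proteasome catalytic subunits, counterparts of Psmb8, Psmb9 and Psmb10, 1 was higher and 0 lower at 12 h, Psmb5 at 0.40 (SE 0.12, adjusted p = 0.035).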

How the data were processed

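RNA from NIH3T3 cells was measured on Affymetrix mouse arrays, 1 array per sample. The deposited values are MAS5 signal, a linear intensity, per the submitters' processing notes. For the program's version and its detection calls, the sources used here gave nothing. That each array's trimmed mean was 500 was checked on the file.

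Platform annotation named 1 gene for 34945 probe sets, several for 932 and none for 9160, beside 64 controls. An offset of 13.6 (20th percentile of the values) was added before log2. A probe set was kept if at least 2 arrays had it over their own 40th percentile (34537 kept), and each gene was read from its brightest one. All 11 groups, in 18 columns, were fitted in limma 3.58.1 (R 4.3.3) with eBayes and a variance trend. Tests were two-sided with Benjamini-Hochberg adjustment over 14996 genes, on 7 residual and 7.47 prior degrees of freedom. The number of arrays limits precision. The test was also run on simulated data with independent noise on each array, which leaves out deviations shared within an experiment.

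Members and lists were chosen with earlier results of these data known. Members called against quiescent at 4, 7 or 12 h of FGF, or for the average U0126 effect, and above 45.2 in a group mean are given in full. From the other lists at most 6 called genes each are named, in order of adjusted p.

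Deviations of same-numbered samples from their group means correlated in 21 of 21 pairs of groups (r 0.127 to 0.305, median 0.211). Experiment numbers were therefore taken to pair samples, and the fit with a replicate block is given where it changes a call. Other settings were an offset of 1 or of 45.2, no filter, a filter at the 50th percentile on 4 arrays, and each gene's most variable probe set. Further ones were quantile normalization, 75th-percentile scaling, no variance trend, only the compared groups, and 3 separate quiescent arrays. In the setting with all probe sets, each kept probe set was tested and a member took its smallest adjusted p, which favours calls. Promoters are from RefSeq (GRCm38.p6). Figures were drawn with matplotlib 3.10.9.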

Additional observations from a re-analysis of the deposited data

Results flagged for a closer look

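The U0126 effect of Gbp2 and of Trim25 differed between times when the experiment number entered limma's fit as a replicate block. For Gbp2 the effect at 12 h minus that at 4 h was 1.29 (log2, adjusted p = 0.0219 for the test over 4, 7 and 12 h). For Trim25 it was 0.75 (adjusted p = 0.0327). Without the block the adjusted p was 0.108 for Gbp2 and 0.181 for Trim25. No group held enough samples for a test of single outlying arrays.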

How the results depend on the processing

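Of 9660 recomputed values, 9338 stayed on their side of the threshold with no called value changing sign (383 of them, not called in either fit, did change sign), 240 lost a call, 80 gained one and 2 called values reversed. With the probe set of highest variance Tap1 at 7 h of FGF turned to 0.57 and Samhd1 at 7 h of FGF+U0126 to 0.64; both rest on other probes of the gene. Counts of called members are given next as the count in that setting, with the main count in brackets. With the replicate block U0126 at 4 h gave 5 (3), at 7 h 4 (2), at 12 h 9 (5), over time 2 (0) and U0126 from 1 h 2 (1); it changed single calls named in the report and ended none. Calls rose with the block over all genes too, to 1944 (889) for U0126 at 4 h. With no variance trend FGF at 12 h gave 10 (17), FGF+U0126 at 4 h 5 (8) and U0126 at 7 h 1 (2). Over all genes no variance trend gave 2377 (3049) for FGF at 12 h and 580 (1107) for FGF+U0126 at 4 h. With only the compared groups FGF+U0126 gave 5 (8) at 4 h and 9 (14) at 7 h, and U0126 1 (2) at 7 h and 2 (5) at 12 h; this was not run for FGF at 1 h and the late additions, which leave too few residual degrees of freedom. With the probe set of highest variance FGF at 1 h gave 1 (0, Stat2), FGF+U0126 at 7 h 8 (14), U0126 at 7 h 1 (2), at 12 h 2 (5) and from 7 h 0 (3). With no filter U0126 at 12 h gave 3 (5), and with all probe sets FGF at 1 h gave 1 (0). Without 1 array, counts ran from 6 to 10, 7 to 12 and 8 to 17 for FGF at 4, 7 and 12 h, from 4 to 8, 4 to 14 and 3 to 6 for FGF+U0126, from 1 to 2 and 2 to 3 for U0126 at 7 and 12 h, and from 1 to 2 for U0126 from 7 h. The cause of these changes was not tested. The average U0126 effect gave 8 to 13 calls over all settings, with 8 to 10 of the original 10 among them. Groups of 1 or 2 arrays and signals near background limit all sizes, above all for Ifit1 and Gbp3.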

Other observations

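Members with several probe sets did not all give the same size. Psmb8 had 2 probe sets, with highest signals of 58.3 and 28.7. Samhd1 had 3 further probe sets kept, with 12 h FGF differences of 1.59, 0.34 and 0.17 against -0.15 for the one used, none passing. That with 0.17 was called for the average U0126 effect (-0.347, adjusted p over probe sets = 0.0451). The one used gave -0.151 there (adjusted p over probe sets = 0.331). Stat2's second probe set gave 0.55 for the average U0126 effect (adjusted p over probe sets = 0.0456), in the direction of the one used. Trim25's other probe sets gave -0.45 (adjusted p over probe sets = 0.00151) and -0.40 (0.0519). For Ddx58 the further probe sets gave -1.11 and -1.02 at 12 h of FGF.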
